A study of Mus musculus with 48 samples.

Results

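The comparison was of chromatin accessibility in terminally exhausted CD8 T cells (Tterm) from tumours of aged mice, with a guide RNA against Dusp5 or with the control that the labels call OTC. Members were the libraries titled as aged, Dusp5 and Tterm (2) and as aged, OTC and Tterm (2), which are 4 of the 48 libraries, and all 53868 peaks of the table were tested. ATAC-seq was used, in which the Tn5 transposase tags open chromatin and the sequenced fragments mark accessible sites. The cells were CD45.1 OT-1 CD8 T cells, whose receptor recognises an ovalbumin peptide, and all groups carried Cas9 and an ametrine-marked lentiviral guide. They were transferred into mice that then received B16-OVA melanoma cells expressing ovalbumin, and were sorted from the tumours 15 days later. Tterm was the Slamf6-negative, Tim-3-positive gate. Other groups used here are the Dusp5 and OTC libraries of aged Tprog (positive for Slamf6 alone), Ttran (positive for both) and Ttad (negative for both), those of young Tterm (3 libraries each), and aged Tterm with a Zfp219 guide (2 libraries). Titles marked A were taken to mean aged hosts and those marked Y young ones. What OTC stands for, the hosts' ages and the guide sequences are not given in the sources used here. Each library pooled sorted cells of several mice, with 5000 to 50000 cells per combination, and which mice entered which pool is not given in the sources used here. The p-values therefore rest on the spread between pools within a group, estimated jointly over all 48 libraries. Each aged group compared here had only 2 pools.

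Dusp5 encodes a nuclear dual-specificity phosphatase that removes the activating phosphates from ERK and holds it in the nucleus. It is itself an ERK target gene, switched on through serum response factor and its ERK-phosphorylated partners, so it forms a feedback brake on the pathway that T cell receptor signals activate. In tumours, persistent receptor signals accompany the passage of CD8 T cells from progenitor cells, which depend on TCF-1 (the product of Tcf7), to terminally exhausted cells with high TOX and several inhibitory receptors.

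Promoter sequences are shown for 4 start sites that lie under peaks called lower with the Dusp5 guide: that of the targeted gene, both of Runx3, whose 23 peaks all had negative fold changes, and that of Fosl2, an AP-1 gene. They come from RefSeq (GRCm38.p6) and run from 250 bases before to 50 bases after the annotated start, 5′ to 3′ on the gene's strand, which is the plus strand for each. Capitals mark matches, on either strand, to AP-1 (TGANTCA), CRE (TGACGTCA), ETS (CCGGAAG), RUNX (TGTGGTT) or the CArG box, the site of serum response factor, in which a run of A or T bases lies between CC and GG. No motif in this set is contained in another.
Dusp5, chr19:53528895-53529194: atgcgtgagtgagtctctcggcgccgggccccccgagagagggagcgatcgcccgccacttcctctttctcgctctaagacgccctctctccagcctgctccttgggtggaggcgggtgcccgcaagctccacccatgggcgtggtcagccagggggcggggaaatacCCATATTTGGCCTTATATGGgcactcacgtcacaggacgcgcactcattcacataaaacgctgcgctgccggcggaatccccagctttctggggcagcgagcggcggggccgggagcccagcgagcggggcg
Runx3, upstream start, chr4:135120395-135120694: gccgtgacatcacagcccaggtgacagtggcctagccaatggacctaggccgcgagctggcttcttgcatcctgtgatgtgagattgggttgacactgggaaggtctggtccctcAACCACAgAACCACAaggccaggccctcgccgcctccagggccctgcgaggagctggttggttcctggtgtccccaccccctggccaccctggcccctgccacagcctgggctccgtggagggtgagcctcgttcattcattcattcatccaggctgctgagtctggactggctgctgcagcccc
Runx3, downstream start, chr4:135152295-135152594: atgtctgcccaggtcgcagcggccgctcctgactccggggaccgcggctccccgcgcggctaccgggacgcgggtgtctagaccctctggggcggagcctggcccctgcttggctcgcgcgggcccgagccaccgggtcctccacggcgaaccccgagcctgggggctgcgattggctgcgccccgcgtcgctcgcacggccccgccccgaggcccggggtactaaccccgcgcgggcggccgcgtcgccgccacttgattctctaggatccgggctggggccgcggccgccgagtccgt
Fosl2, chr5:32136222-32136521: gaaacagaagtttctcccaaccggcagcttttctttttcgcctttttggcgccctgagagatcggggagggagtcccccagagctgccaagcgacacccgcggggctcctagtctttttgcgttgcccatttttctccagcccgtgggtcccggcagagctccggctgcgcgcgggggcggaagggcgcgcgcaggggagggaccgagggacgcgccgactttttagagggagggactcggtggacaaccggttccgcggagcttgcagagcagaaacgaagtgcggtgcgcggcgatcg
The Dusp5 promoter held 2 adjoining CArG boxes, which begin 82 and 72 bases before the start. A CArG box was found in 1.63% of all 32851 promoters of this length, and in 1.12% of the 13674 that overlap a peak. Among 20 promoters of the immediate-early genes listed further on, 5 held a CArG box, and among 14 promoters of the other ERK phosphatases and ERK inhibitors 0 did. The upstream Runx3 promoter held 2 RUNX matches, a motif present in 5.27% of all promoters. The downstream Runx3 promoter and the Fosl2 promoter held none of these motifs. A match describes letters in the window and does not show binding.

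Reads in peaks were 13535015 and 5638413 in the Dusp5 Tterm libraries and 12447296 and 14780826 in the OTC Tterm libraries. The second Dusp5 library was the shallowest of the 48, which ran up to 29942755, and it had 0 reads at 470 peaks. A count of 0 there allows up to 3 reads, or 6.99 normalized reads. Across peaks, log2 values of the libraries within a group had a Pearson correlation of 0.944 for Dusp5 and 0.966 for OTC, and peaks are not independent replicates. Unplaced scaffolds took 2.23% and 2.22% of the normalized reads with the Dusp5 guide and 0.878% and 0.903% with OTC, against a range of 0.576% to 2.23% over all libraries. Most of this lay in 1 scaffold peak, which took 1.86% and 1.84% with the Dusp5 guide and 0.635% and 0.653% with OTC.

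At the targeted gene itself, accessibility with the Dusp5 guide was modestly lower over the promoter. The promoter peak (chr19:53528476-53530901, overlapping the start of Dusp5 and the sequence above) had 865 and 900 normalized reads per Dusp5 library and 1074 and 1116 per OTC library. The groups did not overlap, and the log2 fold change was -0.31 (SE 0.08, adjusted p = 0.0187). A peak 48684 bp from the gene body (chr19:53479124-53480461) had 814 and 641 normalized reads against 914 and 964, and its log2 fold change was -0.38 (adjusted p = 0.0388). These were the 2 of 17 Dusp5 peaks called lower, and 0 were called higher by limma, with 1 higher and 4 lower at an unadjusted p under 0.05 and 1 higher and 2 lower by edgeR. The peak higher by edgeR (chr19:53507249-53508281, adjusted p = 0.0426) lay 20864 bp from the gene body. It had 116 and 154 normalized reads against 54.5 and 69.6, and its limma log2 fold change was 1.10 (adjusted p = 0.0597). Over all peaks 4.11% were called, 1.55% higher and 2.56% lower.

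Of the 17 Dusp5 peaks 12 had negative fold changes, where 50.5% of all peaks did, and the median log2 fold change of the 17 was -0.11. The strongest of them, over the promoter of the noncoding gene 4833407H14Rik, had 1559 and 1466 against 1742 and 1743 normalized reads, and did not pass (log2 fold change -0.20, adjusted p = 0.118). After a cyclic loess normalization, which removes shifts that depend on peak strength, the promoter peak was at -0.19 with an adjusted p of 0.236. Neither of the Dusp5 peaks called lower above was called then. Without the shallow Dusp5 library the promoter peak was at -0.34, and the lower peak 48684 bp from the gene body was at -0.21. The promoter peak's log2 fold change was 0.18 in aged Tprog, -0.20 in aged Ttran, -0.11 in aged Ttad and -0.12 in young Tterm, and the aged Tterm effect did not pass the test of a difference from the other aged states (adjusted p = 0.202) or from young Tterm (adjusted p = 0.494). Accessibility does not measure editing of the gene, which was not measured here.

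**Figure D1:**
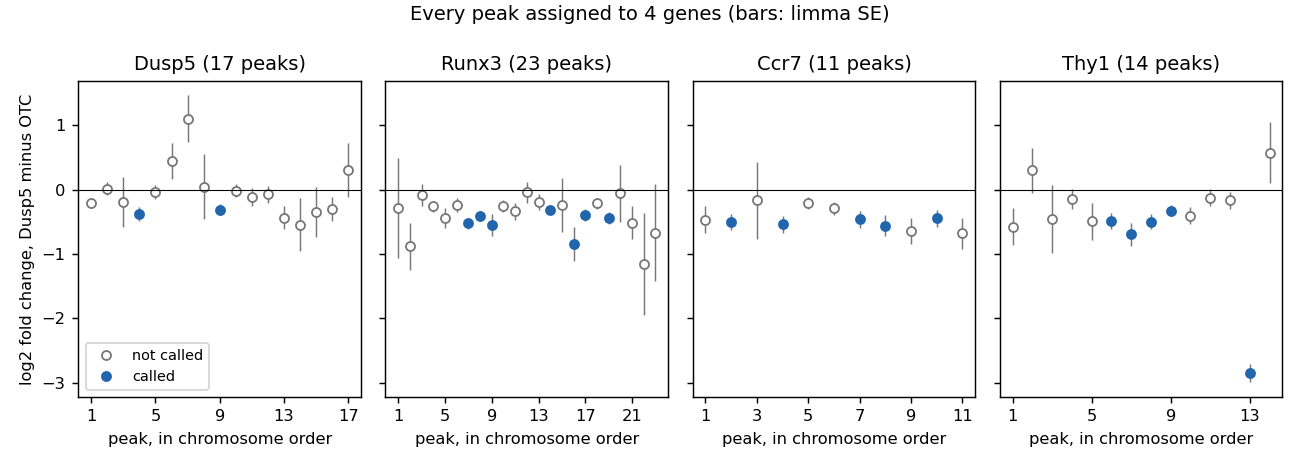
Log2 fold change (y axis, Dusp5 minus OTC in aged Tterm) of every peak assigned to Dusp5, Runx3, Ccr7 and Thy1, in chromosome order (x axis), with limma standard errors as bars and called peaks filled. All 23 Runx3 peaks and all 11 Ccr7 peaks lie below 0, and a single Thy1 peak lies at -2.85.

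Across the genome, 2215 of the 53868 peaks (4.11%) were called between Dusp5 and OTC in aged Tterm, 836 higher (1.55%) and 1379 lower (2.56%) with the Dusp5 guide. The called rises were larger than the called falls in size. They also lay at weaker peaks, with a median mean value of 80.8 normalized reads against 548 for the called falls. The median size of a called rise was 1.32 on the log2 scale, and 545 of the 836 reached 1. The median size of a called fall was 0.45, and 179 of the 1379 reached 1. Among all peaks 46.8% showed no overlap between the groups, and among called peaks 832 of the 836 higher and 1363 of the 1379 lower did. On the recovered whole reads edgeR called 740 higher (1.37%) and 1280 lower (2.38%), and 1809 of the limma calls were shared in the same direction. Without Dusp5 library 2 the count was 548, without OTC library 1 it was 705 and without OTC library 2 it was 987 (496 higher and 491 lower), while without Dusp5 library 1 it was 2674.

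Direction varied with the strength of a peak. In the weakest 10% of peaks, whose middle peak averaged 11.6 normalized reads, the median log2 fold change was 0.41, and in the strongest 10%, at 935, it was -0.12. The strongest 10% held 592 of the lower calls and 39 of the higher ones. The weakest 30% of peaks took 3.15% and 3.11% of the normalized reads in the Dusp5 libraries and 2.45% and 2.51% in the OTC libraries, against 2.42% to 3.29% over all libraries. After cyclic loess, limma called 1181 peaks (2.19%), 614 higher (1.14%) and 567 lower (1.05%). After quantile normalization it called 1130 (2.1%), 587 higher (1.09%) and 543 lower (1.01%), so higher calls made up 51.9% of the total after quantile normalization against 37.7% before. Whether the shift with strength belongs to the guide or to these pools was not tested.

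**Figure D2:**
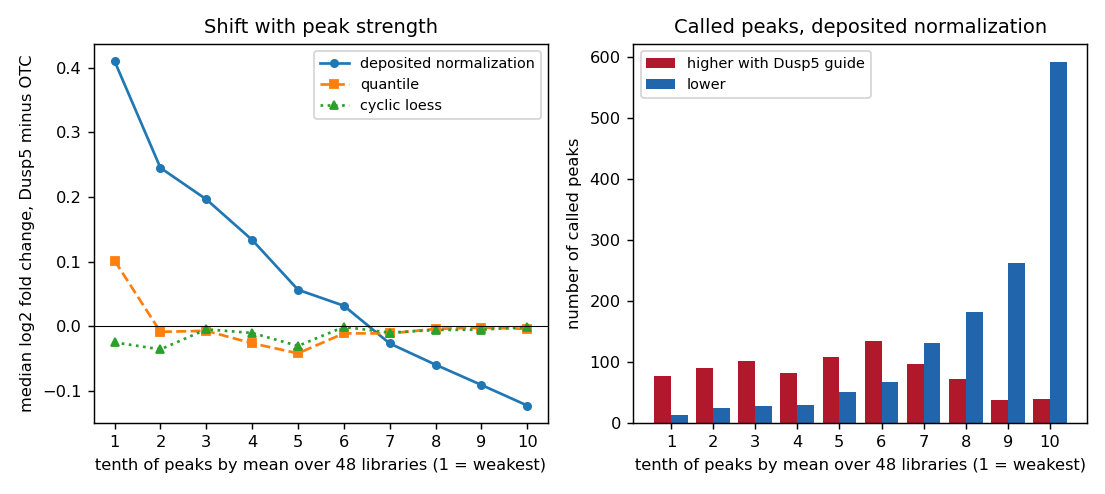
Left, the median log2 fold change (y axis) of peaks in 10 equal bins of their mean over 48 libraries (x axis), under the deposited, quantile and cyclic loess normalizations. Right, the number of called peaks in each bin. The deposited values fall from 0.41 in the weakest bin to -0.12 in the strongest, where 592 peaks were called lower and 39 higher.

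Peaks over promoters were also the strong ones, with a median mean value of 432 normalized reads against 72.3 in gene bodies. Of 10251 peaks over a RefSeq promoter, 55 were higher and 407 lower (3.97%), and after cyclic loess 70 were higher and 64 lower, while the median log2 fold change moved from -0.07 to 0.01. In gene bodies away from promoters, 341 of 25026 peaks were higher and 634 lower. Of 15902 peaks outside gene bodies with a gene within 100 kb, 301 were higher and 295 lower. Of 2689 peaks with no gene in that distance, 139 were higher (5.17%) and 43 lower, and 101 and 24 were after cyclic loess. On unplaced scaffolds, where placement of repeated sequence is uncertain, 37 of 110 peaks were higher by limma (33.6%, against 1.55% of all peaks) and 0 lower. By edgeR 38 were higher and 0 lower. At an unadjusted limma p under 0.05, 58 were higher and 3 lower. These 110 peaks are not a separate class and are also counted in the classes above. Among promoters under a peak called lower, 13.8% of 573 held the ETS motif, 3.66% the AP-1 motif and 5.06% the RUNX motif, against 17.9%, 5.11% and 4.16% of the 13674 promoters under any peak.

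Among called falls with a mean of at least 50 normalized reads in OTC and an assigned gene, the largest was inside Thy1, which encodes the GPI-linked T cell surface protein CD90. That peak (chr9:44046603-44047436, within the gene body) had 129 and 117 normalized reads with the Dusp5 guide and 959 and 829 with OTC. On the log2 scale the difference was -2.85 (SE 0.14, adjusted p = 2.98e-31). Without Dusp5 library 2 it was -2.78. The level in the OTC libraries varied with state: it was 122 to 135 in aged Tprog, 829 to 959 in Tterm, 2944 to 3051 in Ttran and 4611 to 4884 in Ttad. In the aged Dusp5 libraries it stayed between 117 and 266 in all 4 states. The Dusp5 effect was -3.72 in Ttran and -4.64 in Ttad, 0.62 in Tprog and -0.31 in young Tterm, where OTC lay at 248 to 279. The difference between the aged and young Tterm effects was -2.54 (adjusted p = 3.39e-20). Aged Tterm with the Zfp219 guide lay at 125 to 135, close to the Dusp5 libraries, and the direct contrast of the guides did not pass (-0.08, adjusted p = 0.806). Of the other 13 Thy1 peaks 4 were called lower, at -0.33 to -0.69, so the change at this peak was far larger than at the rest of the locus.

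Edn1, the gene of the vasoconstrictor endothelin-1, was nearest to the next fall, 66157 bp away (chr13:42374147-42374849). It had 25.1 and 28.0 normalized reads with the guide and 190 and 148 with OTC (log2 fold change -2.61, SE 0.43, adjusted p = 1.93e-05). The groups were far apart, and the call held without Dusp5 library 2 (adjusted p = 0.00127). Further falls, at Rbm44, Synm, Rab11fip5, Cd300a, Fem1c, Dus2, Eps8l3, Usp48 and Arl14, were weak peaks with log2 fold changes of -1.74 to -2.54. Of these 9, only Fem1c passed without Dusp5 library 2 (adjusted p = 0.0113).

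The named rises were at peaks with few reads in OTC cells. The Dytn peak (chr1:63630021-63630706, in the gene body) had 105 and 35.0 normalized reads against 4.36 and 3.67, so the fitted difference was 3.63 on the log2 scale (SE 0.83, adjusted p = 0.00398). In Ccdc91, which encodes a coiled-coil protein of the trans-Golgi network, the peak chr6:147550204-147554706 had 125 and 156 against 10.9 and 24.7 (log2 fold change 3.01, adjusted p = 0.000242). In Ndst3, a heparan sulfate sulfotransferase gene, the peak chr3:123677103-123680428 had 99.4 and 95.6 against 15.3 and 12.8 (log2 fold change 2.72, adjusted p = 0.000766). The groups did not overlap at any of these. Fhit, a fragile-site gene, had 69.5 and 51.3 against 5.45 and 4.58 (log2 fold change 3.34, adjusted p = 0.000761). The remaining named rises were at Pja2, Zfp978 (2 peaks), Zfp993, Dcaf12l2, Mansc1, 1700020N15Rik and Cldn14, with log2 fold changes of 2.63 to 3.58. Zfp978 and Zfp993 belong to a cluster of closely similar zinc-finger genes, so reads may be split between copies.

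**Figure D3:**
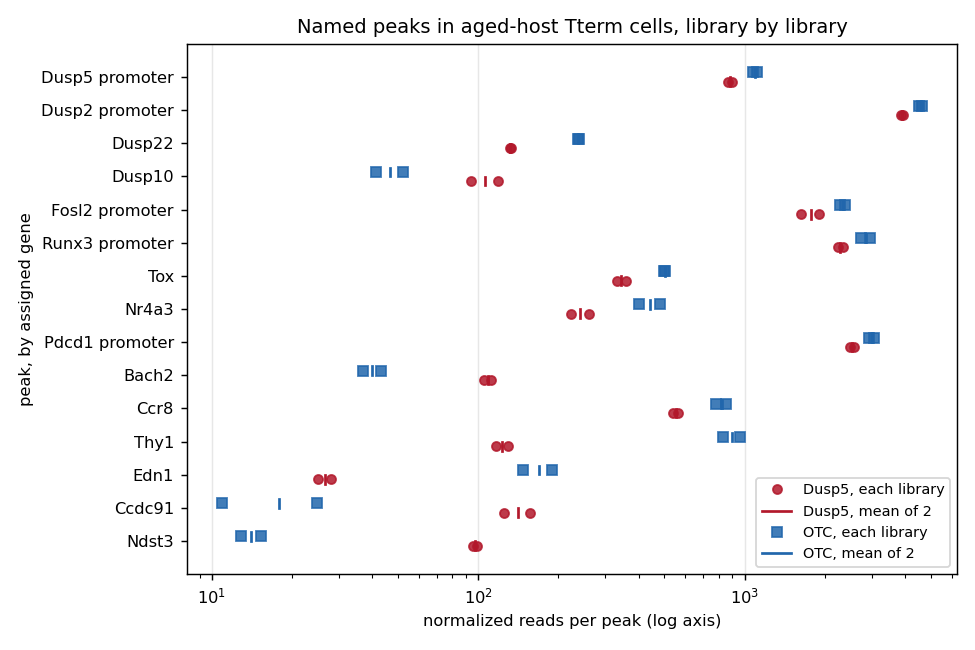
Normalized reads (x axis, log scale) of 15 named peaks (y axis) in each of the 2 Dusp5 and 2 OTC aged Tterm libraries, with vertical ticks at the group means. The groups do not overlap at any of these peaks. The Thy1 peak drops from 959 and 829 in OTC to 129 and 117, while strong promoters such as Dusp2 move by a small fraction of their level.

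Among the components of the Ras to ERK cascade, 19 genes had 130 peaks, of which 3 were called higher (2.31%) and 4 lower (3.08%). Over all peaks the shares were 1.55% and 2.56%. The median log2 fold change was -0.06 against -0.0044 over all peaks. Ksr1, a scaffold that brings RAF, MEK and ERK together, held 3 of the 4 lower calls. Its strongest called peak (chr11:79131753-79132438, in the gene body) had 710 and 643 normalized reads against 979 and 876 (log2 fold change -0.45, adjusted p = 0.00222). A peak near Rasa1, a GTPase-activating protein that switches Ras off, rose from 57.7 and 57.7 to 122 and 107 (log2 fold change 0.97, adjusted p = 0.017). A peak near Rasgrp1, the Ras activator downstream of the T cell receptor, fell from 53.4 and 43.1 to 26.1 and 14 (log2 fold change -1.28, adjusted p = 0.0178), a call not made by edgeR (adjusted p = 0.0847).

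The other brakes on ERK and related kinases, the Dusp, Sprouty and Spred genes, numbered 16 with 123 peaks. Of these 2 were higher (1.63%) and 5 lower (4.07%, against 2.56% of all peaks), with a median of -0.09. Dusp2, which encodes another nuclear ERK phosphatase, held 3 lower calls among its 4 peaks. Its promoter peak had 3855 and 3916 normalized reads against 4650 and 4526 (log2 fold change -0.24, adjusted p = 0.000709), and after cyclic loess it was at -0.06 (adjusted p = 0.602). Dusp22, a phosphatase that limits T cell receptor signals, had an intragenic peak (chr13:30684632-30686440) at 131 and 133 against 236 and 238 (log2 fold change -0.84, adjusted p = 0.00389). Near Dusp10, which acts on JNK and p38, a peak 24948 bp from the gene (chr1:184100584-184101868) rose to 93.6 and 119 from 52.3 and 41.2 (log2 fold change 1.17, adjusted p = 0.00528). The Dusp22 and Dusp10 calls held after cyclic loess, at -0.82 and 1.12. The peaks of Dusp4 and Dusp6, close relatives of Dusp5, had medians of -0.10 over 10 peaks and -0.14 over 4.

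Immediate-early genes, which ERK switches on within minutes through serum response factor and ETS partners, had 118 peaks at 19 genes. By limma 7 were lower (5.93%, against 2.56% of all peaks) and 0 higher, and edgeR called 6 and 0. At an unadjusted p under 0.05 there were 22 lower and 1 higher, against 5591 and 4356 of all 53868 peaks. These were strong peaks, with a median mean value of 345 normalized reads against 93.9 over all peaks. The median log2 fold change was -0.09, and after cyclic loess 0 were lower and 1 higher, with a median of -0.02. Egr1, the prototype ERK-induced zinc-finger factor, had 2141 and 2179 normalized reads against 2746 and 2574 at its strongest called peak (chr18:34859888-34861656, log2 fold change -0.30, adjusted p = 0.00192). At Elk3, an ETS-family partner of serum response factor, a peak 63663 bp from the gene had 337 and 280 against 450 and 490 (log2 fold change -0.61, adjusted p = 0.0177).

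The AP-1 family had 75 peaks at 13 genes, 4 lower (5.33%, against 2.56% of all peaks) and 0 higher by limma. At an unadjusted p under 0.05 there were 16 lower and 0 higher, and edgeR called 3 lower and 0 higher. Fosl2, which encodes the FOS-like factor FRA-2, held 3 of the 4 among its 7 peaks, all of which were negative (50.5% over all peaks). The promoter peak shown by sequence above (chr5:32134999-32136571) had 1633 and 1907 normalized reads against 2286 and 2388. It differed by -0.40 on the log2 scale (SE 0.07, adjusted p = 4.35e-05), by -0.25 after cyclic loess (adjusted p = 0.0205) and by -0.52 without Dusp5 library 2 (adjusted p = 1.94e-05). An intragenic Fosl2 peak fell to 68.5 and 49.0 from 124 and 103 (log2 fold change -0.95, adjusted p = 0.0233), which edgeR did not call (adjusted p = 0.0529). After cyclic loess 2 AP-1 peaks were lower and 2 higher. The median mean value of the AP-1 peaks was 220 normalized reads, against 93.9 over all peaks.

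**Figure D4:**
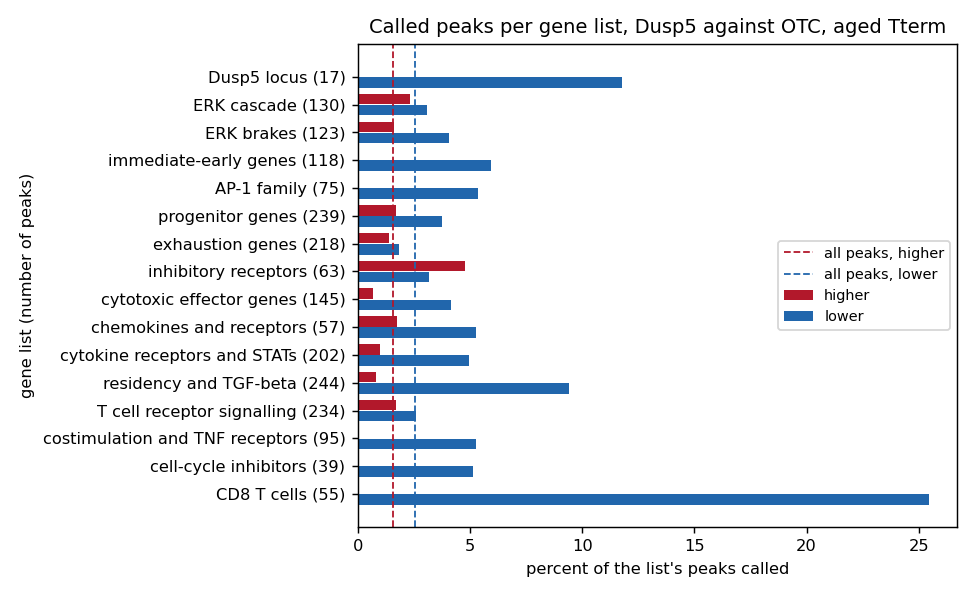
Percent of each gene list's peaks called higher or lower (x axis), with the number of peaks in brackets and dashed lines at the 1.55% and 2.56% of all peaks. Farthest right lie the CD8 T cell markers, with 14 of 55 peaks lower, and the Dusp5 locus, with 2 of 17. The residency and TGF-beta genes follow, with 23 of 244. They and the CD8 T cell markers both hold Runx3.

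Progenitor genes had 239 peaks, 4 higher (1.67%) and 9 lower (3.77%, against 2.56% of all peaks). Their median was -0.0045 against -0.0044 over all peaks. At Ccr7, the lymph node homing receptor, 5 of 11 peaks were lower and all 11 were negative (50.5% over all peaks), with a median of -0.46. All 7 peaks of Id3, an inhibitor of E proteins, were negative too, with 1 called lower. A peak 11291 bp from Ccr7 (chr11:99130801-99132908) had 501 and 517 normalized reads against 713 and 732 (log2 fold change -0.50, adjusted p = 0.00788). It was at -0.42 after cyclic loess (adjusted p = 0.0458), when 2 of the 11 were called. With the Zfp219 guide in aged Tterm, the 5 called Ccr7 peaks were at -0.48 to -0.98 against the same OTC libraries. None of the 5 passed the direct contrast of the guides. At Bach2, a repressor that maintains the stem-like state, the strongest called peak fell from 1484 and 1541 to 1213 and 1142 (log2 fold change -0.36, adjusted p = 0.00377), while an intragenic peak (chr4:32439603-32440680) rose from 37.0 and 43.1 to 112 and 105 (log2 fold change 1.42, adjusted p = 0.00473). Foxp1, a quiescence factor, had 2 of 46 peaks higher and a median of 0.38.

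Exhaustion genes had 218 peaks, 3 higher (1.38%, against 1.55% of all peaks) and 4 lower (1.83%, under the 2.56% of all peaks). The median was -0.06. The higher calls were at Entpd1, Rbpj and Ikzf2, 1 each, and after cyclic loess 1 peak of the list was higher and 5 lower. At Tox, the factor that programmes exhaustion, an intragenic peak (chr4:6901278-6904000) had 359 and 331 normalized reads against 504 and 500 (log2 fold change -0.54, SE 0.11, adjusted p = 0.00104). The value was -0.46 after cyclic loess (adjusted p = 0.0113) and -0.48 without Dusp5 library 2 (adjusted p = 0.0521), and 26 other Tox peaks were not called. At Nr4a3, an orphan nuclear receptor induced by T cell receptor signals, an intragenic peak (chr4:48072745-48073686) had 261 and 224 against 480 and 403 (log2 fold change -0.86, SE 0.15, adjusted p = 0.00011). The Nr4a3 fall held after cyclic loess (-0.81) and without Dusp5 library 2 (-0.75, adjusted p = 0.0209). Among inhibitory receptors 3 of 63 peaks were higher (4.76%, against 1.55% of all peaks) and 2 lower (3.17%). Their median of -0.02 changed sign to 0.01 after cyclic loess, when 2 were higher and 0 lower. Pdcd1 held 2 of the higher calls and 1 of the lower ones among its 9 peaks. The Pdcd1 promoter peak, at the gene for PD-1, had 2585 and 2478 against 2929 and 3063 (log2 fold change -0.24, adjusted p = 0.00353), and was at -0.07 after cyclic loess (adjusted p = 0.574).

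Of 145 peaks at cytotoxic genes 1 was higher and 6 lower (4.14%, against 2.56% of all peaks), with a median of -0.11. The called Tbx21 peak, at the gene for T-bet, had 991 and 1037 normalized reads against 1261 and 1252 (log2 fold change -0.31, adjusted p = 0.0366). A peak near Klrg1, a receptor of effector cells, rose to 344 and 394 from 279 and 214 (log2 fold change 0.59, adjusted p = 0.0243). Chemokine and chemokine receptor genes had 57 peaks, 1 higher and 3 lower (5.26%, against 2.56% of all peaks). Their median changed sign from -0.04 to 0.03 after cyclic loess. A peak 8515 bp from Ccr8, a receptor for the chemokine CCL1 (chr9:120082116-120083618), had 540 and 564 against 784 and 854. Its log2 fold change of -0.57 (adjusted p = 0.000416) held after cyclic loess (-0.47) and without Dusp5 library 2 (-0.60, adjusted p = 0.00841).

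Cytokine receptor, JAK and STAT genes had 202 peaks, 2 higher and 10 lower (4.95%, against 2.56% of all peaks). Their median was -0.14, and after cyclic loess 2 were higher and 4 lower. All 5 peaks of Il2rb, the IL-2 receptor beta chain, and all 10 of Stat3 had negative fold changes, where 50.5% of all peaks did. The strongest called Il2rb peak had 2679 and 2860 normalized reads against 3327 and 3063 (log2 fold change -0.21, adjusted p = 0.0204), and was at -0.04 after cyclic loess (adjusted p = 0.808). Jak1, in contrast, held both rises, the larger from 38.1 and 52.2 to 105 and 86.2 (log2 fold change 1.08, adjusted p = 0.0111).

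Among the residency and TGF-beta genes, 23 of 244 peaks (9.43%) were lower and 2 higher, with a median of -0.13, and after cyclic loess 11 were lower and 1 higher. Runx2 and Runx3 held 7 each and Runx1 held 2. Runx3, the factor that sets the CD8 lineage and tissue residency, had 7 of 23 peaks lower. All 23 were negative (50.5% over all peaks), with a median of -0.33. The peak over its upstream promoter (chr4:135118721-135121521) had 2234 and 2342 normalized reads against 2739 and 2959 (log2 fold change -0.32, adjusted p = 0.000399), and was at -0.16 after cyclic loess (adjusted p = 0.161). The peak over its downstream promoter (chr4:135151941-135154582) had 719 and 783 against 958 and 1014 (log2 fold change -0.39, adjusted p = 0.00466), and was at -0.28 after cyclic loess (adjusted p = 0.0776). A peak 43010 bp from the gene body (chr4:135076694-135077635) had 1026 and 1086 against 1518 and 1523 (log2 fold change -0.53, adjusted p = 2.67e-05), which held after cyclic loess (-0.40, adjusted p = 0.00244). Runx2, a related factor, had 7 of 46 peaks lower and 40 negative. The summed Runx3 signal was 12073 and 12845 with the guide and 15768 and 15755 with OTC, with no overlap.

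T cell receptor signalling genes had 234 peaks, 4 higher and 6 lower (2.56%, as over all peaks), with a median of -0.07. Ptpn2 held 2 of the higher calls, and Lat and Fyn 1 each. After cyclic loess 3 of the 234 peaks were higher and 0 lower, so the Cd3d and Fyn falls given next were no longer called. Both Cd3d peaks were lower, the stronger at 1219 and 1315 normalized reads against 1542 and 1562 (log2 fold change -0.29, adjusted p = 0.0137). At Fyn, a Src-family kinase of the proximal receptor complex, a peak fell from 1417 and 1335 to 1093 and 960 (log2 fold change -0.43, adjusted p = 0.00238). Costimulation genes had 95 peaks, 5 lower (5.26%, against 2.56% of all peaks) and 0 higher by limma. At an unadjusted p under 0.05 there were 15 lower and 2 higher, and edgeR called 3 and 0. The strongest called Icos peak had 672 and 566 against 776 and 825 (log2 fold change -0.37, adjusted p = 0.0216). A weak Icos peak 34717 bp from the gene, at 17.4 and 0 against 25.1 and 11.9, was called by limma at -2.10 (adjusted p = 0.0134) with overlapping groups and not by edgeR (adjusted p = 0.556). Without the library at 0 its log2 fold change was 0.0025. Cell-cycle inhibitors had 39 peaks, 2 lower (5.13%, against 2.56% of all peaks) and 0 higher by limma and by edgeR. At an unadjusted p under 0.05, 2 were lower and 1 higher, and after cyclic loess 0 were called in either direction. The 2 called lower lie over the shared promoter of Trp53 and Wrap53 and over the promoter of Kri1 beside Cdkn2d.

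Among defining markers of CD8 T cells, lower calls were mainly at Thy1 and Runx3. Of 55 peaks at Cd8a, Cd8b1, Cd3e, Thy1 and Runx3, 14 were lower (25.5%, against 2.56% of all peaks) and 0 higher by limma, with 28 and 0 at an unadjusted p under 0.05, and edgeR called 12 and 0. The median was -0.33, and -0.28 after cyclic loess, when 6 were called. The summed signal was 22630 and 23134 with the Dusp5 guide and 29144 and 28674 with OTC. Thy1 held 5 of the calls and Runx3 7, with 1 each at Cd8a and Cd8b1 and 0 of 5 peaks at Cd3e. The Cd8a promoter peak had 713 and 573 normalized reads against 630 and 654, with overlapping groups. Markers of other cells that a tumour sort could hold were few among the peaks: melanoma genes summed to 788 and 785 against 887 and 857, myeloid genes to 1587 and 1601 against 1706 and 1658, B cell genes to 729 and 772 against 701 and 686, CD4 and regulatory T cell genes to 1386 and 1492 against 1733 and 1707, and NK cell genes to 2261 and 2156 against 2437 and 2211. In each of these 5 lists limma and edgeR called 0 peaks, with at most 1 higher and 2 lower per list at an unadjusted p under 0.05. Genes of these lists with no peak assigned included Dct, Tyr, Tyrp1, Adgre1, Csf1r, Lyz2, Cd79a, Ms4a1 and Foxp3. The part of other cells in the result was not tested.

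By number of peaks, the genes with the most lower calls were Dad1 (7 of 30), Itpr1 (7 of 44), Runx2 (7 of 46), Runx3 (7 of 23) and Cmip (6 of 24), with Rapgef1 (6 of 23) and Rora (6 of 30) level with Cmip. Dad1 lies beside the T cell receptor alpha locus, and Itpr1 encodes a calcium release channel of the endoplasmic reticulum. All these calls were falls of moderate size, from -0.23 to -0.98. The genes with the most higher calls were Gm52481 (7 of 26), Sfi1 (6 of 18), 4932411N23Rik (5 of 9), Chst15 (4 of 9) and Gm21119 (4 of 6). Sfi1 encodes a centrosome protein. Mid1 also had 4 higher calls of 11. Gm52481 lies on chromosome Y, and 4932411N23Rik and Mid1 lie on X. Whether uncertain placement of repeated sequence entered the counts at these genes was not tested.

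Sites that distinguish sorted states were then examined, with the states defined in young OTC libraries that the comparison does not use. In those libraries limma called 13.9% of peaks higher and 12.6% lower in Tprog than in Tterm. Of 3751 called peaks more open in young Tprog than young Tterm by at least 1 on the log2 scale, 192 were higher with the Dusp5 guide (5.12%) and 58 lower (1.55%). Without Dusp5 library 1 the split was 163 higher and 140 lower, and without Dusp5 library 2 it was 76 and 13. Their median log2 fold change was 0.19, and mean log2 signal was 5.41 and 5.30 in the Dusp5 Tterm libraries against 5.08 and 5.11 in OTC Tterm, with 6.37 and 6.38 in aged OTC Tprog. The groups did not overlap, and the Dusp5 Tterm libraries lay between OTC Tterm and OTC Tprog. Over all peaks this mean was 6.67 and 6.61 with the Dusp5 guide against 6.55 and 6.57 in OTC Tterm, also without overlap. Peaks open in Tprog are mostly weak: 2714 of them lie below the median strength of all peaks, where the median was 0.28, against 0.18 for all such peaks. Above the median strength the median was 0.05, against -0.07. After cyclic loess the median of the 3751 was 0.06, with 118 higher and 53 lower. Of 2187 peaks more open in young Tterm by the same rule, 15 were higher and 22 lower (1.01%), with a median of -0.02, and -0.12 after cyclic loess.

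The Dusp5 changes were then compared across the other sorted states of aged hosts, whose OTC libraries are separate, although states may come from the same mice. Dusp5 against OTC gave 2047 called peaks in Ttran (3.8%; 1.36% higher and 2.44% lower), 1552 in Ttad (2.88%; 1.21% and 1.67%) and 447 in Tprog (0.83%; 0.178% and 0.652%). Of the 1379 peaks lower in Tterm, 362 were also called lower in Ttran (26.3% of the Tterm list and 27.5% of the Ttran list), 225 in Ttad (16.3% and 25%) and 74 in Tprog (5.37% and 21.1%). Of the 836 higher peaks, 50 were called higher in Ttran (5.98% and 6.85%), 53 in Ttad (6.34% and 8.12%) and 10 in Tprog (1.20% and 10.4%). Opposite calls, lower in the other state, were made at 27 of the 836 in Ttran, 5 in Ttad and 60 in Tprog. The test of a difference between the Tterm effect and the average over the 3 remaining aged states passed at 386 peaks (0.717%), 237 positive (0.44%) and 149 negative (0.277%). Without Dusp5 library 1 the balance turned, to 272 positive and 675 negative, and without Dusp5 library 2 it was 101 and 31.

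Young hosts gave fewer calls in Tterm, 147 peaks (0.273%; 0.139% higher and 0.134% lower), from 3 libraries a group with 16737521 to 23362020 reads in peaks each. Of the 1379 lower peaks 15 were also lower in young Tterm and 5 were higher, and of the 836 higher peaks 10 were higher and 3 lower. The median log2 fold change in young Tterm was -0.05 over the lower list and 0.01 over the higher list. The difference between the aged and young effects passed at 644 peaks (1.2%), 281 positive (0.522%) and 363 negative (0.674%). The balance turned without OTC library 1 (171 and 126) and without OTC library 2 (201 and 154), and without Dusp5 library 1 it was 314 and 734. Named peaks that passed it include Nr4a3 (-0.96, SE 0.20, adjusted p = 0.00257), where young Tterm was at 0.09, Tox (-0.64, adjusted p = 0.00712), Ccr8 (-0.56, adjusted p = 0.02), Dusp22 (-0.97, adjusted p = 0.0239) and Jak1 (1.93, adjusted p = 0.000342). Fosl2 did not pass (-0.25, adjusted p = 0.159), nor did the Runx3 upstream promoter (-0.26, adjusted p = 0.0799).

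**Figure D5:**
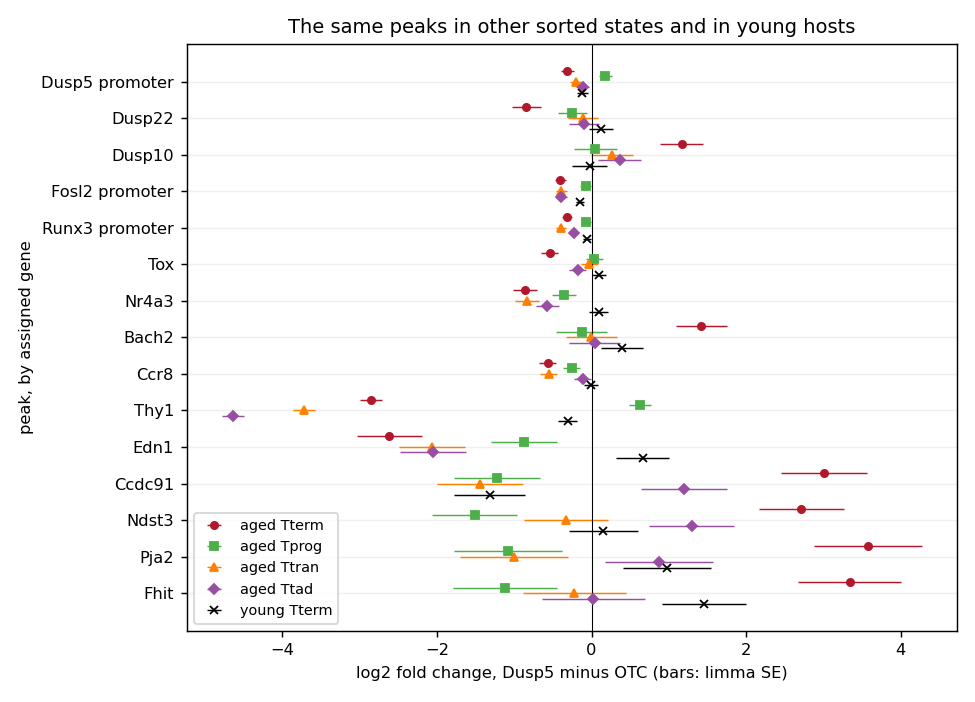
Log2 fold change of Dusp5 against OTC (x axis, bars are limma standard errors) for 15 named peaks (y axis) in aged Tterm, Tprog, Ttran and Ttad and in young Tterm, each against its own OTC libraries. Nr4a3, Thy1 and Edn1 lie below 0 in aged Tterm, Ttran and Ttad. Ccdc91, Ndst3, Pja2 and Fhit lie between 2.72 and 3.58 in aged Tterm and between -1.51 and 1.45 in the other 4 comparisons.

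The Zfp219 guide in aged Tterm was set against the same OTC libraries and gave 1922 called peaks (3.57%), so the comparisons share their controls and only values side by side are given. At the Dusp5 promoter peak the Zfp219 log2 fold change was -0.12 against -0.31 for Dusp5, at Fosl2 -0.26 against -0.40, at the Runx3 upstream promoter -0.44 against -0.32, and at Thy1 -2.77 against -2.85. The direct contrast of the guides, which does not use OTC, passed at 2724 peaks (5.06%), 1272 higher with Dusp5 (2.36%) and 1452 lower (2.7%). This balance depended on the method: edgeR called 1397 higher and 1230 lower, and limma after cyclic loess 1255 and 955. The Dusp5 promoter peak did not pass it (-0.19, SE 0.08, adjusted p = 0.179). Nr4a3 was lower with the Dusp5 guide than with the Zfp219 guide (-0.52, adjusted p = 0.0281), and so was the Cd3d peak (-0.31, adjusted p = 0.00672). The intragenic Bach2 peak was higher (1.12, adjusted p = 0.0292). The largest differences were at Efcab10 (3.57), 4930444P10Rik (3.37), Fhit (3.24), Klrk1 (-2.91), Cd300a (-2.39) and Sorl1 (-1.96).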

How the data were processed

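The deposited table holds a signal per peak and library that the authors normalized: genome and tools were mm10 and Bowtie2 2.2.9, Picard 2.8.0, MACS2 2.1.1, SAMtools 1.3.1 and DESeq2 1.28.1, per the submitters' processing notes, which give no roles or settings. Duplicate removal and insertion-site shifts are not given in the sources used here. The deposited values were whole multiples of a step per library (100% within 0.01 reads), so each is a read count divided by a size factor, and reads were recovered for count tests; 1 young Zfp219 Tprog library, whose step lies close to 1 (0.991), was left out of those. Peak coordinates matched GRCm38: 50.1% of 21900 genes had a boundary in a peak, against 7.94% to 8.18% with the table shifted.

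Peaks were assigned to the protein-coding RefSeq gene body they overlap, else the nearest within 100 kb. Exons, introns and UTRs were not used here. The main test was limma 3.58.1 (R 4.3.3) on log2(value + 1), with a trend, all 48 libraries and 21 group means, and Benjamini-Hochberg adjustment over 53868 peaks. Peaks were called at an adjusted p under 0.05, and the pseudocount of 1 understates changes of weak peaks. edgeR 4.0.16 (quasi-likelihood, TMM) and DESeq2 1.42.0 on the reads, other normalizations, pseudocounts, filters and sample sets were the alternatives, and fits were tested on simulated data. Intervals are not given for single values, and the read floor covers counting error only. Named were all Dusp5 peaks, the 12 largest called rises and 12 falls with a mean of at least 50 in the higher group and no overlap, the strongest and most changed called peaks of each gene list, the 5 genes with the most calls in each direction and the 3 largest called differences per direction in each difference test. A few further peaks of Runx3, Ccr7, Thy1, Cd8a and the median of Foxp1, Dusp4 and Dusp6 were chosen after their values were seen. Of these, 1 fall and 1 marker gene are not reported here. The members, lists and tests were chosen with earlier results of these data known.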

Additional observations from a re-analysis of the deposited data

Results flagged for a closer look

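The Dusp5 effect differed between aged Tterm and the mean of the other aged states at 386 peaks, and between aged and young Tterm at 644 peaks, each by a test of the difference itself in limma. In the first test the largest negative differences were at 4930563M21Rik (-2.80), Fem1c (-2.79) and Klrk1 (-2.51). At 4930563M21Rik Dusp5 library 2 had 0 reads, and neither this peak nor Klrk1 passed in edgeR. The largest positive ones were at Zfp978 (4.20), Pja2 (3.98) and Fhit (3.78), which passed in edgeR. At Fhit the aged Tterm libraries had 51.3 and 69.5 normalized reads with the guide and 4.58 and 5.45 with OTC, whereas the OTC libraries of the other aged states lay at 19.5 to 37.0.

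In the test against young hosts the largest negative differences were at Edn1 (-3.27), Tdpoz2 (-3.24) and Rtn4rl1 (-3.10), and the largest positive ones at Ccdc91 (4.33), Gtsf1 (3.20) and 4932411N23Rik (3.18). The Rtn4rl1 difference did not pass in edgeR, and Dusp5 library 2 had 0 reads there. Edn1 and Ccdc91 also passed without that library. At Edn1 the aged OTC libraries lay at 148 and 190 normalized reads, and the young OTC libraries at 31.5 to 38.6, so both groups entered the difference. What sets these differences was not tested.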

How the results depend on the processing

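The count of called peaks between Dusp5 and OTC in aged Tterm was 1130 after quantile normalization, 764 with the compared groups alone, 1375 with library quality weights, 1181 after cyclic loess, 1044 with reads thinned to the smallest library, and 548 to 2674 with 1 library left out, against 2215. The difference from other aged states gave 243 with the compared groups alone, 211 with quality weights, 174 thinned, and 132 (without Dusp5 library 2) to 947 (without Dusp5 library 1) with 1 library left out. The difference from young Tterm gave 1174 with the compared groups alone, 995 by DESeq2, 307 thinned, and 236 (without Dusp5 library 2) to 1048 (without Dusp5 library 1) with 1 left out. Dusp5 against Zfp219 gave 1439 with the compared groups alone, 1341 thinned, and 700 (without Dusp5 library 2) to 3008 with 1 left out. With the state sets redefined under each setting, the 250 calls at Tprog-open peaks became 155 (quantile), 97 (compared groups alone), 166 (quality weights), 164 (cyclic loess), 128 (thinned) and 89 to 303 with 1 left out, and the 37 at Tterm-open peaks 74 (DESeq2), 15 (thinned) and 10 to 58 with 1 left out. Without Dusp5 library 2 the weak Icos peak was at 0.0025 and Rtn4rl1 at 0.15, both reversed, and without Dusp5 library 1 they were at -4.20 and -5.09. With a replicate block 2177 peaks were called; deviations of same-numbered aged Dusp5 and OTC Tterm libraries had a correlation of -0.0016, and nothing in the labels ties these 4 libraries by number. Of 69 named peaks called, 45 fell below the threshold without Dusp5 library 2, 36 without OTC library 1, 43 without OTC library 2, 23 after cyclic loess and 12 by edgeR. Fewer libraries and reads leave less power by construction; other causes were not tested. Quality weights, cyclic loess and thinning were chosen after seeing the data. Depth of the shallow Dusp5 library limits weak peaks.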
